A study of Solanum tuberosum with 6 samples.

Results

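The miRNAs miR162, miR168 and miR403 were examined in potato leaves, because their known targets are genes of the small RNA machinery itself. The miRNA table of the study gives 910 sequences, and the rows named after these families with a lower-case miR were taken as members, whatever their length or hairpin arm. There were 12 of them, 3 of miR162, 7 of miR168 and 2 of miR403. The prefixes name the species whose miRBase entry a row matched, stu for potato, sly for tomato and nta for tobacco. Leaves of greenhouse plants of Solanum tuberosum cv. Shepody were harvested 72 h after spraying, which was done 21 days after emergence. KPhi plants received potassium phosphite as a 1% (v/v) solution of a commercial product at 5 mL per plant (libraries T2, T4 and T6), and control plants received water (C1, C3 and C5). All plants were of one cultivar and 24 days past emergence, and the 3 libraries of each condition were described as biological replicates.

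In plants, Dicer-like 1 (DCL1) cuts miRNA precursor hairpins into a short duplex of both arms. One strand, the guide, is loaded into an Argonaute (AGO) protein and directs it to matching mRNAs, while the other strand is mostly lost. miR162 is known to target the mRNA of DCL1, and miR168 that of AGO1, the main effector of plant miRNAs, so that both belong to feedback loops. miR403 is known to target the mRNA of AGO2, which takes part in antiviral defense. The guide is the 3′ arm (3p) for miR162 and miR403 and the 5′ arm (5p) for miR168. The mRNAs of DCL1, AGO1 and AGO2 were not measured in these libraries, nor were mRNA markers of leaf cells. In whole leaves, fewer cells of a type and less RNA per cell cannot be told apart.

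The guide rows with enough reads to be tested are shown because the comparisons rest on them. They are written 5′ to 3′ with T for U as deposited, and the capitals mark the seed, bases 2 to 8.
stu-miR162a-3p: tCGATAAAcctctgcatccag
sly-miR168a-5p_R+1: tCGCTTGGtgcaggtcgggacc
nta-miR168a_R+1: tCGCTTGGtgcaggtcgggact
sly-miR403-3p_1ss17GA: cTAGATTCacgcacaaactcg
The rows of the opposite arms are shown because their reads moved apart from those of the guides in some libraries.
stu-miR162a-5p: gGAGGCAGcggttcatcgatc
sly-miR168b-3p_L+1: tCCCGCCTtgcatcaactgaat
sly-miR168a-3p: cCTGCCTTgcatcaactgaat
sly-miR403-5p_R-1: cGTTTGTGcgtgaatctaac
The suffix R+1 marks a row 1 base longer at the 3′ end than the miRBase entry, R-1 one that is 1 base shorter, L+1 one that is 1 base longer at the 5′ end, and 1ss17GA a single substitution at base 17.

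Laid against each other, the arms formed duplexes of the kind that DCL1 releases. stu-miR162a-3p and stu-miR162a-5p faced each other over 19 bases, 16 of which were Watson-Crick pairs, and each strand stood over by 2 bases at its 3′ end. sly-miR403-3p_1ss17GA and sly-miR403-5p_R-1 had 17 such pairs over 19 bases, with overhangs of 2 bases and, on the shortened 5p row, 1 base. sly-miR168a-5p_R+1 had 15 Watson-Crick and 3 G-T pairs over 20 bases with sly-miR168b-3p_L+1, again with overhangs of 2 bases on each strand. Against sly-miR168a-3p it had 13 Watson-Crick and 4 G-T pairs over 19 bases, and its own overhang was 3 bases.

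Among the members, no seed was shared between families or between arms. The seed of sly-miR168a-5p_R+1 occurred in 5 rows of the table, all of them miR168 members, and that of stu-miR162a-3p in 2 rows, the other being nta-miR162a_R+2_1ss21GT. The miR168 guide rows of 22 nt, sly-miR168a-5p_R+1 and nta-miR168a_R+1, differed only at their last base (C22T, counted from the 5′ end). The miR168 rows of the 3p arm differed at 1 of 21 aligned bases (C4T, counted in sly-miR168b-3p_L+1), and sly-miR168b-3p_L+1 had an extra 5′ base. Their seeds differed. The first base was T in stu-miR162a-3p and in both 22 nt guide rows of miR168, which is the base that AGO1 is known to prefer, and C in sly-miR403-3p_1ss17GA. Among the 12 members, none had a row of the table that equals it less its last base, so that no separate level of a 21 nt miR168 guide was at hand. RefSeq names 2 potato precursors of miR162, MIR162A and MIR162B, in its SolTub_3.0 assembly, and reads that fit both cannot be told apart. Genome positions of the members were not analysed here.

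Small RNA reads that could be mapped numbered 4390887 to 8025802 in KPhi and 4133739 to 5434422 in control libraries, and the miRNA table held 160923 to 555989 reads of a KPhi and 377811 to 612266 reads of a control library. The table made up 4.56% of the mappable reads in T2, 3.66% in T4 and 9.35% in T6, where the control libraries had 9.14% to 11.3%. T2 and T4 thus stood apart, and T4 also had 33.5% of its raw reads over 32 nt (3.13% to 13.6% in the other libraries) and the fewest reads in the table. The miR166 family took 60.0% to 81.3% of the table in KPhi and 81.4% to 83.5% in control libraries, which moves every share of the table. Levels are therefore given as TMM-normalized CPM, a relative read count whose scaling sets most sequences level across libraries. Intervals from read numbers cover counting error only.

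miR168 and miR162 were well expressed and miR403 was scarce. By reads, miR168 ranked 8 (10848.5 reads over the 6 libraries), miR162 ranked 10 (6687 reads) and miR403 ranked 17 (238 reads) among the 87 families of the table. Some deposited read numbers are fractions, and the rule behind them is not given in the sources used here. Together the families made up 1.24% of the table in T2, 0.816% in T4 and 0.651% in T6, against 0.666% in C1, 0.404% in C3 and 0.623% in C5. The order miR168, miR162, miR403 held in every library but T2, in which miR162 (7746 CPM) lay above miR168 (5564 CPM). In control libraries every miR168 total was above every miR162 total, whereas in KPhi libraries their ranges overlapped. miR403 was below miR162 in all 6 libraries without overlap.

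**Figure D1:**
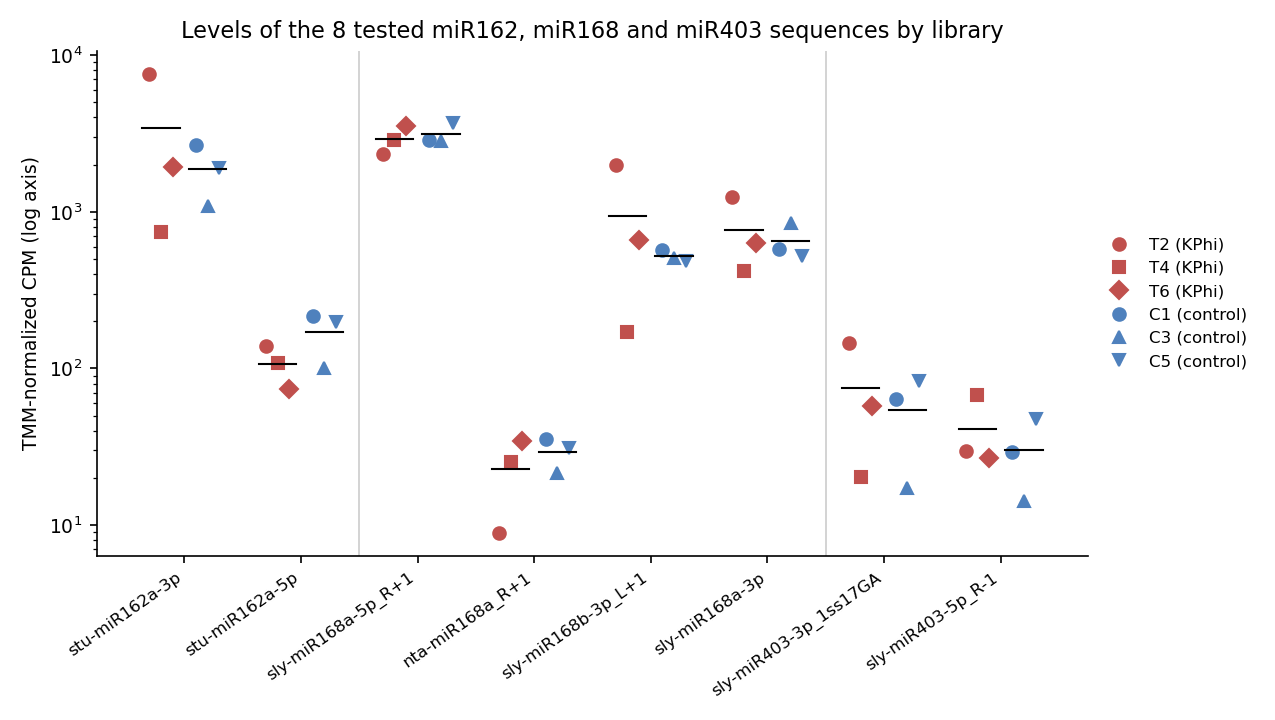
TMM-normalized CPM (log axis) of the 8 tested sequences in each KPhi library (red) and each control library (blue), with horizontal lines at the group means. T2 is the highest and T4 the lowest KPhi library for stu-miR162a-3p, both miR168 3p rows and sly-miR403-3p_1ss17GA, while sly-miR168a-5p_R+1 lies between 2331 and 3701 CPM in all libraries.

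stu-miR162a-3p, the guide against DCL1, had 2550, 222.5 and 1009 reads in T2, T4 and T6, against 1542.5, 377 and 639.5 reads in C1, C3 and C5. Its level was 7606 CPM in T2, 748 CPM in T4 and 1942 CPM in T6, against 2662, 1080.4 and 1892 in the control libraries. The highest and the lowest of the 6 libraries were thus both KPhi libraries, and the control values lay within the KPhi range. The means were 3432 ± 3664 CPM in KPhi and 1878 ± 791 CPM in control libraries (SD, n = 3 each), with a log2 fold change of 0.87 (standard error, SE, 0.73, 95% interval -0.75 to 2.49, Benjamini-Hochberg adjusted p = 0.614 by the quasi-likelihood test of edgeR). Without T2 the log2 fold change was -0.50, and without T4 it was 1.57 (unadjusted p = 0.0461, edgeR adjusted p = 0.417).

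stu-miR162a-5p, the opposite arm, was much scarcer, with 46.5, 32 and 38.5 reads in KPhi libraries and 124.5, 35 and 67 reads in control libraries. In CPM these were 139, 108 and 74.1 in T2, T4 and T6, against 215, 100.3 and 198 in C1, C3 and C5. The means were 107 ± 32.3 CPM in KPhi and 171 ± 61.9 CPM in control libraries (SD, n = 3 each), with overlapping libraries. The log2 fold change was -0.69 (SE 0.52, 95% interval -1.85 to 0.46, edgeR adjusted p = 0.610). It had the smallest unadjusted p of the members, 0.212. The remaining miR162 row, nta-miR162a_R+2_1ss21GT, had 3 reads in all and was below the filter.

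sly-miR168a-5p_R+1, the guide against AGO1, varied least of the tested members among KPhi libraries. It had 781.5, 849.5 and 1836.5 reads in T2, T4 and T6, against 1671.5, 989.5 and 1251 reads in C1, C3 and C5. In CPM the KPhi libraries had 2331, 2855 and 3536, and the control libraries had 2884, 2836 and 3701, so that the groups overlapped, and the coefficients of variation were 20.8% in KPhi and 15.5% in control libraries. The means were 2907 ± 604 CPM in KPhi and 3140 ± 486 CPM in control libraries (SD, n = 3 each), with a log2 fold change of -0.11 (SE 0.40, 95% interval -0.996 to 0.77, edgeR adjusted p = 0.886). The interval leaves room for a change in either direction.

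Its companion with a T at the last base, nta-miR168a_R+1, had 3, 7.5 and 18 reads in KPhi and 20.5, 7.5 and 10.5 reads in control libraries. It made up 0.382%, 0.875% and 0.971% of the reads of both 22 nt rows in T2, T4 and T6, against 1.21%, 0.752% and 0.832% in C1, C3 and C5. T2 was thus the lowest and C1 the highest, and the groups overlapped. Its log2 fold change was -0.28 (SE 0.55, edgeR adjusted p = 0.821). The longer rows nta-miR168a_R+4, nta-miR168a_R+6 and nta-miR168d_R+2_1ss20AG had 1, 0.5 and 0.5 reads, all in C1. In the other libraries they had 0 reads, which allows up to 3 reads, or 0.374 to 0.726 RPM of mappable reads.

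The 3p arm of miR168 varied more than the guide among KPhi libraries. sly-miR168b-3p_L+1 had 1982 CPM in T2, 171 in T4 and 664 in T6, whereas C1, C3 and C5 were close together at 566, 507 and 482. The coefficient of variation was 99.7% in KPhi and 8.30% in control libraries. The means of 939 ± 936 and 518 ± 43.0 CPM (KPhi and control, SD, n = 3 each) gave a log2 fold change of 0.86 (SE 0.71, edgeR adjusted p = 0.610). Without T2 it was -0.32, and without T4 it was 1.56 (unadjusted p = 0.0260, edgeR adjusted p = 0.311). sly-miR168a-3p had 1242, 417 and 628 CPM in T2, T4 and T6, against 575, 848 and 521 CPM in C1, C3 and C5. Here the same KPhi libraries were highest and lowest, with a log2 fold change of 0.23 (SE 0.51, edgeR adjusted p = 0.822), and of -0.30 without T2. For each read of sly-miR168a-3p there were 1.60 of sly-miR168b-3p_L+1 in T2, 0.411 in T4 and 1.06 in T6, against 0.985, 0.598 and 0.926 in C1, C3 and C5. Since these rows differ at 1 aligned base and hold fractional reads, their division is less certain than their sum.

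sly-miR403-3p_1ss17GA, the guide against AGO2, rested on few reads, 49, 6 and 30 in T2, T4 and T6, against 37, 6 and 28 in C1, C3 and C5. In CPM these were 146, 20.2 and 57.8 in KPhi and 63.8, 17.2 and 82.8 in control libraries. T2 was the highest and C3 the lowest, and the groups overlapped, with a log2 fold change of 0.45 (SE 0.76, edgeR adjusted p = 0.801), and of -0.45 without T2. sly-miR403-5p_R-1 had 10, 20 and 14 reads in KPhi and 17, 5 and 16 reads in control libraries. Unlike the guide it was highest in T4, at 67.2 CPM, with 29.8 and 27.0 CPM in T2 and T6 and 29.3, 14.3 and 47.3 CPM in C1, C3 and C5. Its log2 fold change was 0.42 (SE 0.59, edgeR adjusted p = 0.758).

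The filter asked for 10 or more reads in 3 or more libraries, which 165 sequences met. Of these, 0% had an adjusted p under 0.05 in edgeR, and 9.70% had an unadjusted p under 0.05 (16 sequences, where DESeq2 gave 27 and limma-trend 9, with 0 after adjustment in each). Of the 12 members, 8 passed the filter on reads, and 0 of these 8 were called at either threshold. DESeq2 and limma-trend likewise found 0 of 8 at the unadjusted threshold, and edgeR found 2 when T4 was left out, stu-miR162a-3p and sly-miR168b-3p_L+1, where 11.0% of the sequences were under that threshold (18 of 164). KPhi and control libraries did not overlap for 17.0% of the sequences tested (7.88% with KPhi above and 9.09% with KPhi below control) and for 0 of the 8 members. The log2 fold changes of the members were above 0 in 5 and below 0 in 3, where 43.6% of all sequences tested were above and 56.4% below 0. Their median was 0.33, beside -0.13 over all sequences tested. The spread among KPhi libraries exceeded that among control libraries in 6 of the 8 members and in 102 of the 165 sequences. The median coefficients of variation were 56.5% in KPhi and 31.6% in control libraries for the members, and 45.5% and 34.5% for all sequences tested.

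**Figure D2:**
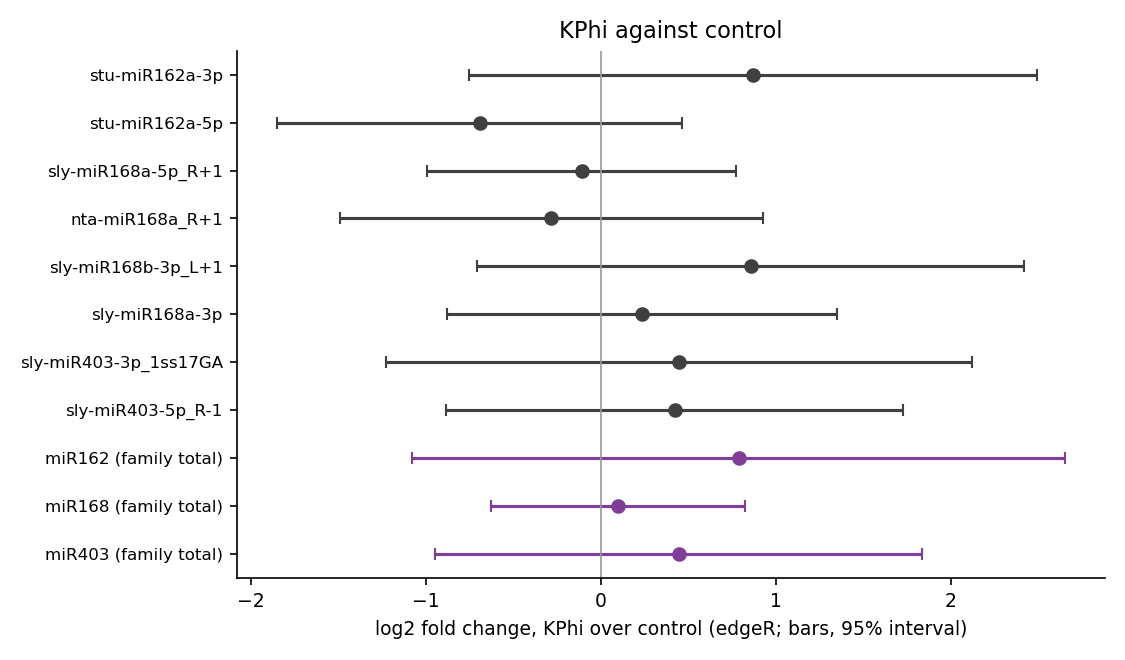
log2 fold change, KPhi over control, from edgeR for the 8 tested sequences (grey) and the 3 family totals (purple), with 95% intervals as bars. Every interval includes 0, and those of miR168 (-0.63 to 0.82) and sly-miR168a-5p_R+1 are the narrowest.

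Summing a family removes the question of how reads were split between its rows. The miR162 total was 7746, 855 and 2017 CPM in T2, T4 and T6, against 2879, 1181 and 2093 CPM in C1, C3 and C5 (log2 fold change 0.79, SE 0.79, edgeR adjusted p = 0.677, corrected over 32 families). The miR168 total was 5564, 3468 and 4862 CPM in KPhi, against 4064, 4213 and 4734 CPM in control libraries (log2 fold change 0.10, SE 0.31, 95% interval -0.63 to 0.82, edgeR adjusted p = 0.817). The miR403 total was 176, 87.4 and 84.7 CPM in KPhi, against 93.2, 31.5 and 130 CPM in control libraries (log2 fold change 0.44, SE 0.59, edgeR adjusted p = 0.706). No family total separated KPhi from control libraries, which 15.6% of the 32 families did, and none had an unadjusted p under 0.05, which 9.38% did. All 3 log2 fold changes were above 0, where 56.2% of the families were below. The sign of each total turned with mappable reads as library sizes, to log2 fold changes of -0.018 for miR162, -0.34 for miR168 and -0.14 for miR403, and without T2 the miR162 total was at -0.53 and the miR168 total at -0.042.

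Relative to all mappable small RNA, miR162 had 324, 58.0 and 176 RPM in T2, T4 and T6, against 307, 86.8 and 171 RPM in C1, C3 and C5. The difference of the means was -2.42 RPM (exact two-sided permutation test, p = 1, adjusted p = 1 over the 3 families). miR168 had 232, 235 and 425 RPM in KPhi and 433, 310 and 387 RPM in control libraries, a difference of -79.3 (exact permutation test, p = 0.3, adjusted p = 0.9). In T2 and T4 it was thus below every control library, whereas T6 lay within their range. T2 and T4 were also the libraries in which the whole miRNA table took the smallest share of mappable reads (4.56% and 3.66%), and its part in this difference was not tested. Relative to the reads of the miRNA table instead, miR168 had 5099, 6413 and 4542 RPM in KPhi and 3846, 3141 and 4236 RPM in control libraries, every KPhi library being the higher (exact permutation test, p = 0.1, adjusted p = 0.3). That denominator moves with miR166, and without the miR166 reads in it the KPhi libraries had 19580, 16026 and 24352 RPM and the control libraries 23334, 18861 and 22734 RPM, with overlap. With table reads as library sizes, the median log2 fold change of all sequences tested was 0.35, against -0.13 by TMM. The share of families without overlap on the scale of table reads was not determined. miR403 had 7.35, 5.92 and 7.40 RPM of mappable reads in KPhi and 9.94, 2.32 and 10.6 RPM in control libraries, a difference of -0.74 (exact permutation test, p = 1, adjusted p = 1). With 3 libraries against 3 no p below 0.1 is possible.

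The ratio of the arms was then compared, since a ratio within a library needs no scaling between libraries. For each read of the miR162 5p arm there were 54.8 of the 3p guide in T2, 6.95 in T4 and 26.2 in T6, against 12.4, 10.8 and 9.56 in C1, C3 and C5. The control libraries were close together, and KPhi libraries lay on both sides of them. On the log2 scale the ratio was 4.43 ± 1.51 in KPhi and 3.44 ± 0.19 in control libraries (SD, n = 3 each), a difference of 0.99 (exact two-sided permutation test, p = 0.4, adjusted p = 0.9 over the 3 families). Without T4 the difference was 1.81, with both remaining KPhi libraries above all control libraries (exact permutation test, p = 0.1, the smallest that this design can give, adjusted p = 0.3), and without T2 it was 0.32. Of 10 other families with tested rows named for both arms, miR1886, miR1919 and miR482 likewise had T2 and T6 above all control libraries. The rest did not.

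In miR168 the direction of the libraries was turned round. For each 3p read there were 0.726 reads of the 5p guide in T2, 4.90 in T4 and 2.76 in T6, against 2.56, 2.11 and 3.72 in C1, C3 and C5. The guide thus made up 42.1% of the family in T2, 83.0% in T4 and 73.4% in T6, against 71.9%, 67.8% and 78.8% in C1, C3 and C5, and T2 was the library in which the opposite arm had more reads than the guide. The log2 ratio was 1.10 ± 1.41 in KPhi and 1.44 ± 0.42 in control libraries (SD, n = 3 each), a difference of -0.34 (exact permutation test, p = 0.9, adjusted p = 0.9), and of 0.44 without T2.

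In miR403 the 3p guide made up 83.1% of the family in T2 (exact Clopper-Pearson 95% interval 71.0% to 91.6%), 23.1% in T4 (8.97% to 43.6%) and 68.2% in T6 (52.4% to 81.4%). In C1, C3 and C5 it made up 68.5% (54.4% to 80.5%), 54.5% (23.4% to 83.3%) and 63.6% (47.8% to 77.6%). The interval of T4 lay below those of T2, T6, C1 and C5 and overlapped that of C3. The log2 ratio was 0.55 ± 2.07 in KPhi and 0.73 ± 0.43 in control libraries (SD, n = 3 each), a difference of -0.18 (exact permutation test, p = 0.9, adjusted p = 0.9), and of 0.97 without T4.

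**Figure D3:**
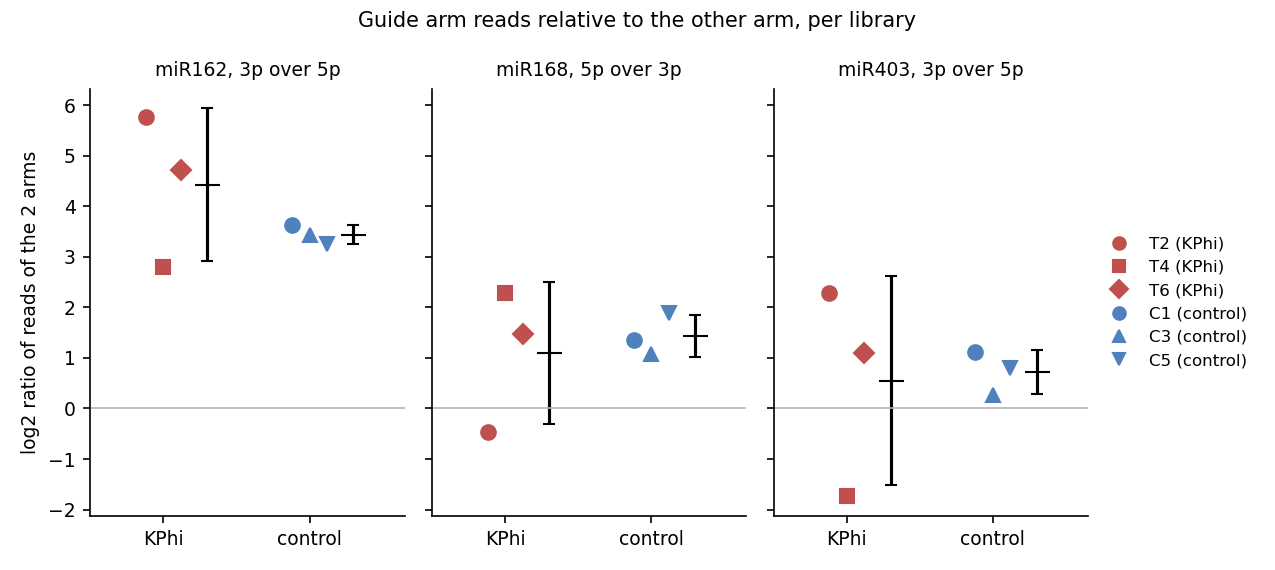
log2 ratio of guide arm reads to reads of the other arm in each KPhi library (red) and each control library (blue) for miR162, miR168 and miR403, with the mean and SD of each group as black bars. T2 and T4 lie 2.75 to 4.03 log2 units apart, while the SD of the control libraries is 0.19 to 0.43.

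In T2 and T4 the tested rows sorted by arm, whether they were guides or not. Relative to the mean of the control libraries, the 4 rows of the 3p arm lay 0.97 to 2.11 higher in T2 and 0.60 to 1.59 lower in T4, on the scale of log2(CPM + 1). This held for the guides stu-miR162a-3p and sly-miR403-3p_1ss17GA as for sly-miR168a-3p and sly-miR168b-3p_L+1, which are not guides. In T6 they lay between -0.013 and 0.36. The 4 rows of the 5p arm lay between -1.58 and 0.13 in T2 and between -0.59 and 1.27 in T4. In T4 the arms thus nearly met, with sly-miR168a-3p at -0.602 and stu-miR162a-5p at -0.589. From T4 to T2 the 3p rows differed by a median of 3.07 and the 5p rows by a median of -0.72. The rows of an arm are not independent, since the miR168 rows of each arm differ at 1 aligned base. The lowest 5p row in T2, nta-miR168a_R+1, rested on 3 reads there.

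**Figure D4:**
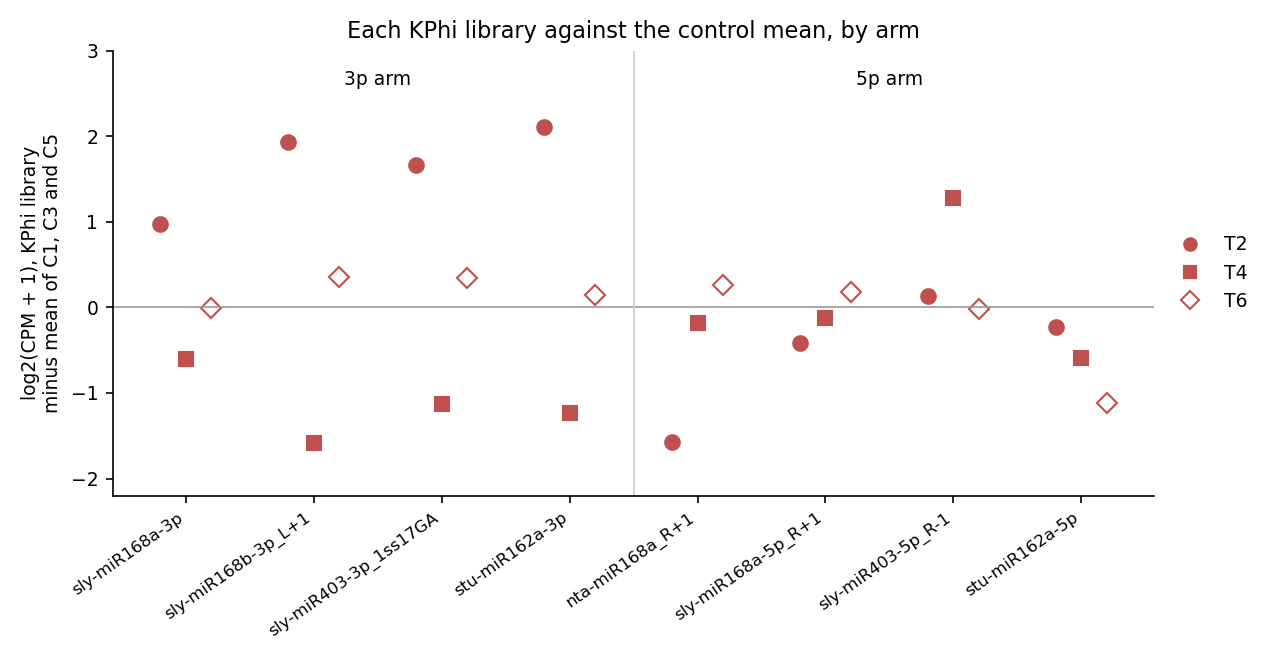
log2(CPM + 1) in T2, T4 and T6 minus the mean of the 3 control libraries for each tested sequence, with the 3p arm on the left and the 5p arm on the right. All 3p rows lie above 0 in T2 and below 0 in T4, and the 5p rows show no such split.

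The 3p arms of other known miRNAs did not share this pattern as a group. Over the 27 other known miRNA rows with a 3p arm in their names the median difference of T2 from T4 was 0.14. Over 30 with a 5p arm in their names it was -0.011. Rows of predicted new miRNAs leaned in the direction of the members, with medians of 0.21 over 48 rows of the 3p arm and -0.42 over 35 of the 5p arm. Other known rows with no arm in their names were left out of these medians. Of 10 other families with tested rows named for both arms, the 3p to 5p ratio was higher in T2 than in T4 in 4. On the log2 scale the difference was 4.49 in miR166, 3.93 in miR1886, 2.71 in miR1919 and 1.34 in miR482. In the others it lay between -6.94 (miR396) and -0.014 (miR8006). In miR162, miR168 and miR403 it was 2.75 to 4.03, a span that miR1886 lay in and miR166 exceeded. These are descriptions of 2 libraries and were not tested. The SD of the 3p to 5p log2 ratio was larger in KPhi than in control libraries in 7 of the 10 other families. Its median over them was 0.98 in KPhi and 0.64 in control libraries, so a wider spread in KPhi was not particular to miR162, miR168 and miR403. The 3p rows of the members also held less G, 13.6% to 14.3% of their bases, than the 5p rows, with 25.0% to 40.9%. Over 74 other known miRNA rows the share of G and the difference of T2 from T4 had a Spearman rho of -0.44, and over 83 rows of predicted new miRNAs one of 0.083. These points share the same 2 libraries, and the part of base content in the arm ratios was not tested. The GC content of all 165 sequences had a rho of -0.081 with the same difference.

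The sequences most like each leading guide across the 6 libraries were sought by the mean absolute difference of centred log2(CPM + 1). For stu-miR162a-3p they were stu-MIR1886a-p3_1ss14TC (0.21), sly-miR168b-3p_L+1 (0.33) and sly-miR403-3p_1ss17GA (0.38), where the median over the 164 other sequences was 0.96. For sly-miR403-3p_1ss17GA they were stu-MIR1886a-p3_1ss14TC (0.27), stu-miR162a-3p (0.38) and stu-miR8000_1ss13TC (0.44), where the median was 0.98. For sly-miR168a-5p_R+1 they were stu-MIR7985-p3_2ss13CT17GA (0.12), PC-3p-639_2331 (0.17) and stu-miR482d-3p (0.19), where the median was 0.56. The guides of miR162 and miR403 were thus among each other's nearest sequences, and the guide of miR168 was not among the nearest of either.

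Among other small RNAs tied to the same machinery, those written MIR of these families, miR6026 and miR390 were examined. stu-miR6026-3p, of a family known in tomato to target DCL2, had 161, 40.3 and 7.70 CPM in T2, T4 and T6, against 36.2, 5.73 and 5.92 CPM in C1, C3 and C5. T2 was again the highest and the groups overlapped, with a log2 fold change of 1.97 (SE 1.01, edgeR adjusted p = 0.504). The whole miR6026 family had only 98 reads over the 6 libraries. miR390, which is loaded into AGO7 and starts the production of trans-acting siRNAs from TAS3, had a total of 29.8 ± 5.85 CPM in KPhi and 29.8 ± 1.21 CPM in control libraries (SD, n = 3 each). Its log2 fold change was -0.011 (SE 0.37, 95% interval -0.89 to 0.87, edgeR adjusted p = 0.976, corrected over 32 families). The miR390 total rested on 71 reads over the 6 libraries. Of the 3 rows written MIR, nta-MIR168d-p3, which is sly-miR168b-3p_L+1 with 1 more base, had 7.5, 0.5 and 5.5 reads in T2, T4 and T6, against 1.5, 2.5 and 2.5 reads in control libraries. The others had 3 reads and 1 read, all in T2. Of all these rows only stu-miR6026-3p passed the filter on reads, and it was not called.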

How the data were processed

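Small RNA libraries (TruSeq Small RNA kit, 50 nt single-end, HiSeq 2500) of 3 KPhi and 3 control samples were processed by the authors with ACGT101-miR (version not given in the sources used here). The authors removed adapters, kept reads of 15 to 32 nt and searched miRBase 21.0 precursors and the genome of potato with BLAST, length variants and a mismatch being allowed. The deposited counts of raw, over-length and mappable reads per library are whole numbers. The deposited reads per sequence before normalization are expected counts, some of them fractions. The authors' deposited normalized signal is these reads times 1 factor per library, with 0.001 for 0 reads, and served only as an alternative. The authors' own p-values were not used.

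Reads were rounded and tested with edgeR 4.0.16 (TMM, quasi-likelihood, Benjamini-Hochberg over all 165 sequences). The TMM factors were 0.916, 1.85 and 0.934 in T2, T4 and T6 and 0.947, 0.746 and 0.895 in C1, C3 and C5. Family totals used the same library sizes and factors. Standard errors and 95% intervals came from the same model. For arm ratios and shares the test was an exact permutation over libraries (two-sided). In miR162, miR168 and miR403 a row without an arm in its name took the arm of the family row sharing its first 15 bases. Rows of other families took an arm from their names only, and those without one were left out of the comparison of arms. Alternatives were RLE factors, library size, mappable reads, the authors' factors, DESeq2 1.42.0, robust dispersion, no miR166, a filter of 10 reads in all libraries or none, limma-trend (limma 3.58.1, log2 of the normalized value plus 1), other row choices and each library left out. Software was R 4.3.3, scipy 1.17.1, pandas 2.3.3 and Python 3.11.15. The edgeR script was run on simulated data with the same dispersion for every sequence. No simulated library was made to stand apart as T2 and T4 did, so that run checks the script only. Replicates of a group differed far beyond sampling noise (chi-square per degree of freedom 27.2 to 461).

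All members are named, with miR6026, miR390, the rows written MIR and, per leading guide, the 3 sequences of the most similar pattern. The members and lists were chosen with earlier results of these data known, and the comparisons with arms and base content of other rows after the values were seen.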

Additional observations from a re-analysis of the deposited data

How the results depend on the processing

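The labels give KPhi and control libraries no shared replicate number, so pairing by experiment could not be established and no paired analysis was run. If libraries were paired, that was not taken into account. No member or family total reached an adjusted p under 0.05 under any setting run, the lowest being 0.311 for sequences and 0.397 for families (edgeR). Without the filter edgeR called 4 of 841 sequences, none of them a member, against 0 of 165, and 46 against 16 at an unadjusted p under 0.05. With 10 reads asked for in every library, nta-miR168a_R+1 and both miR403 rows were not tested. Scaling moved the median log2 fold change of all sequences to 0.35 by library size and to -0.49 by mappable reads, from -0.13 by TMM. By library size sly-miR168a-5p_R+1 turned to 0.39 and nta-miR168a_R+1 to 0.15. By mappable reads sly-miR168a-3p turned to -0.30, sly-miR403-3p_1ss17GA to -0.23, sly-miR403-5p_R-1 to -0.0084, and the totals of miR162, miR168 and miR403 to -0.018, -0.34 and -0.14. As a share of table reads the differences turned to 1695 (miR162), 1610.2 (miR168) and 57.9 (miR403) RPM, and without miR166 to 3147 (miR162) and 48.7 (miR403).

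With 1 library left out, log2 fold changes ranged from -0.50 to 1.57 for stu-miR162a-3p, -0.91 to -0.36 for stu-miR162a-5p, 0.041 to 0.95 for sly-miR403-5p_R-1, -0.45 to 1.08 for sly-miR403-3p_1ss17GA, -0.32 to 1.56 for sly-miR168b-3p_L+1, -0.21 to 0.14 for sly-miR168a-5p_R+1, -0.30 to 0.71 for sly-miR168a-3p and, over the fits without T2, T4 or C3, -0.30 to 0.090 for nta-miR168a_R+1, which fell below the filter without T6, C1 or C5. Family totals ranged from -0.53 to 1.47 (miR162), -0.042 to 0.42 (miR168) and 0.035 to 1.00 (miR403), and members at an unadjusted p under 0.05 from 0 to 2, the 2 without T4, where 18 of 164 sequences were under it. Over all sequences these counts ran from 4 of 139 (without C1) to 21 of 144 (without T6). Shares of mappable reads ranged from -71.3 to 61.6 (miR162), -143 to -46.8 (miR168) and -3.40 to 0.76 (miR403) RPM. Arm differences ranged from 0.32 to 1.81 (miR162), -0.94 to 0.44 (miR168) and -1.05 to 0.97 (miR403). Why T2 and T4 lay apart was not tested, and with 6 and 20 reads per arm the miR403 ratio of T4 is imprecise.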
